A study of Rattus norvegicus with 9 samples.

Results

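Glutathione transferases (GST), UDP-glucuronosyltransferases (UGT) and sulfotransferases (SULT) attach glutathione, glucuronic acid or sulfate to drugs, steroids, bilirubin and products of lipid oxidation, and their liver RNA was followed here after burn and CLP. Members were all probe sets with exactly 1 platform gene symbol beginning with Gst and a class letter (a, m, p, t, o, k or z), Mgst, Ugt1, Ugt2 or Sult. The rule used no measured values and found 40 of the 15923 probe sets, for 38 genes: 19 GST probe sets for 19 genes, 7 UGT probe sets for 6 genes and 14 SULT probe sets for 13 genes. A further 4 probe sets with several symbols, of which at least 1 fitted the names, are not members. No member symbol began with Ugt1.

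Total RNA of whole rat liver was hybridised to 9 one-colour arrays in 3 groups of 3. Burn-CLP livers came from rats given a burn and CLP, Sham-CLP livers from rats given a sham procedure and CLP, and Sham-Sham livers from controls given sham procedures alone. The labels leave CLP unexplained; in rodent work it means cecal ligation and puncture, a model of infection spreading from the gut. They give no strain, sex, age, dose or time. They also do not name the animal behind each array, so a p-value here reflects the spread between arrays, part or all of which may be technical.

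In hepatocytes, GST enzymes are soluble proteins of several subclasses, while the Mgst enzymes and the UGT enzymes sit in membranes and the SULT enzymes are soluble. GST enzymes take glutathione itself as their partner, UGT enzymes take UDP-glucuronic acid, and SULT enzymes take the activated sulfate PAPS. Several GST genes, mainly of the alpha, mu and pi subclasses, are textbook targets of the antioxidant transcription factor Nrf2. Many UGT and SULT genes are controlled by nuclear receptors and by hepatocyte transcription factors.

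The sequences below are promoters of members that the results turn on. They are 4 of the mu subclass, which holds a called member, Sult2b1, the other called gene, and Ugt2b, whose signal was present or absent array by array. The mu genes Gstm3 and Gstm4 are not among them. Each is the 250 bases just before the annotated start of the gene in RefSeq's rat annotation, build GRCr8, written 5′ to 3′ on the gene's strand. Capitals mark the core of the antioxidant response element, TGACNNNGC, and the TATA box TATAAA, each searched on both strands, and no printed copies of the one overlap the other. The 4 mu promoters are on chromosome 2, Gstm1 at chr2:198343384-198343633 on the minus strand, Gstm2 at chr2:198316918-198317167 on the minus strand, Gstm5 at chr2:198219519-198219768 on the plus strand and Gstm7 at chr2:198260320-198260569 on the minus strand. The Sult2b1 promoter is at chr1:105397745-105397994 on the minus strand and the Ugt2b promoter at chr14:20985199-20985448 on the plus strand.
Gstm1: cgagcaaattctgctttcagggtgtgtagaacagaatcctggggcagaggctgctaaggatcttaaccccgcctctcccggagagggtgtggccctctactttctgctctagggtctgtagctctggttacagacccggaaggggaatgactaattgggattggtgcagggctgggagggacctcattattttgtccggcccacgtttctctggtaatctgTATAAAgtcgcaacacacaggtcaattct
Gstm2: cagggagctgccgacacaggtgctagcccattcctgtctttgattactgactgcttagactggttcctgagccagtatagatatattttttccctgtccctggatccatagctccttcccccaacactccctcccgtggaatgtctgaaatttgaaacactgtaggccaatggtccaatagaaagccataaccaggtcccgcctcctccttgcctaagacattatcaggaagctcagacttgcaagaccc
Gstm5: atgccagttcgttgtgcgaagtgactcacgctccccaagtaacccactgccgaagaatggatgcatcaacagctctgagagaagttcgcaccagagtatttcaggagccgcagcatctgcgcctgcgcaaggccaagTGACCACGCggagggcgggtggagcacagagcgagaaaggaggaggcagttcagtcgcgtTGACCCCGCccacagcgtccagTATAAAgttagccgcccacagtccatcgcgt
Gstm7: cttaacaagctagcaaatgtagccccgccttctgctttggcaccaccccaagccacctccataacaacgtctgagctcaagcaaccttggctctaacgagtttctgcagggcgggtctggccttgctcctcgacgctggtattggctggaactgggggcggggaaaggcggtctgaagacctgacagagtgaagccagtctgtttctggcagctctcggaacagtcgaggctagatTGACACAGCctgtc
Sult2b1: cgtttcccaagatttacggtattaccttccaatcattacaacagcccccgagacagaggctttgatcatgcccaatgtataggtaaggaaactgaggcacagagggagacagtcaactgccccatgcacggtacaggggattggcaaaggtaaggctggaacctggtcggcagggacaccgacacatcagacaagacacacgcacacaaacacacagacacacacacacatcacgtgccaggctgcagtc
Ugt2b: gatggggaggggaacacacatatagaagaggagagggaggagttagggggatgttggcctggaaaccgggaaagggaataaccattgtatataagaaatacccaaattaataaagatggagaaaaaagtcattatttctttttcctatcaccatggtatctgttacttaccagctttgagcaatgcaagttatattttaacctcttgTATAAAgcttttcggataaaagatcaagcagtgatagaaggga

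Gstm5 held the antioxidant core in 2 places, at 113 to 105 and at 53 to 45 bases before the start, and Gstm7 held it at 14 to 6 bases before the start. Gstm1 had the TATA letters at 29 to 24, Gstm5 at 31 to 26 and Ugt2b at 43 to 38 bases before the start. None of these letters were found in the windows of Gstm2 and Sult2b1. RefSeq promoters were matched for 32 of the 38 member genes. The antioxidant core was present in the 250 bases of 5 of 16 matched GST genes (Gsta3, Gstm5, Gstm7, Gstp1 and Gstz1), 0 of 5 UGT genes and 0 of 11 SULT genes, against 10.1% of the 33469 promoters of this length. TATAAA was present in 4 of 16 GST, 1 of 5 UGT and 5 of 11 SULT genes, against 12.9% of all promoters. The GST genes were Gsta1, Gstm1, Gstm3 and Gstm5, and the SULT genes Sult1c2a, Sult1d1, Sult2a1, Sult2a2 and Sult2a6. The letters lay far from the start in Gsta1 (176 to 171 bases before it), Sult1c2a (245 to 240) and Sult1d1 (within 248 to 241). The C/EBP motif TTGCNNAAT, searched on both strands, was present in 3 of 11 SULT genes, Sult2a1, Sult2a2 and Sult2a6, against 2.26% of all promoters. It was in 0 GST and in 0 UGT genes. The 3 genes are close relatives with the same letters, TTGCTCAAT. These lay 157 to 149 bases before the start in Sult2a1 and Sult2a6, and 148 to 140 in Sult2a2. The 3 matches may therefore not be separate, and the same holds for the TATA letters of these 3 genes. The HNF1 letters GTTAAT were in 2 SULT (Sult2a2, Sult2a6), 1 GST (Gsta3) and 0 UGT genes, against 6.45% of all promoters. The 2 SULT matches may likewise not be separate. Motifs of the glucocorticoid receptor, HNF4 and NF-kB were searched too, with 0 matches in members. All these are matches of letters in a window and do not show binding.

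All values below are quantile normalized signals on a linear scale. Signals under 64.3, the 20th percentile of all values, were set to that floor, and tests were run where 3 or more of the 9 arrays exceeded it. This left 13535 probe sets of the series and 37 of the 40 member probe sets, 18 GST, 7 UGT and 12 SULT. On every array, 28 of the 37 exceeded the floor. The 3 left out were Gstm3, which lay above the floor on 2 arrays (72.6 on Burn-CLP 2 and 139.6 on Sham-Sham 1), and Sult1d1 and the second Sult2b1 probe set, which lay at the floor on all 9. Array Sham-Sham 1 was the least similar to the rest, its correlations averaging 0.9078, against 0.9377 to 0.9587 for the other arrays. Summed signals of 5 hepatocyte markers were 125125 to 131250.2 in Burn-CLP, 131781 to 137202 in Sham-CLP and 130465 to 132736 in Sham-Sham liver, with Alb, Apoa1 and Ttr well above the floor on every array. Quantile normalization gives every array the same set of values, and markers this bright repeat them. Alb had 35699 on Burn-CLP 1 and 2, Sham-CLP 2 and 3, and Sham-Sham 2 and 3. This Alb probe set, the brightest part of the sums, could therefore vary little, and the sums say little about hepatocyte content. Apoa1 and Ttr varied more, from 15508 to 24136 and from 18182 to 26548 over the 9 arrays. A second Alb probe set, not in the sums, had 23816, 23085 and 24644 in Burn-CLP and 25906 to 29279 on the other arrays. In whole liver, fewer cells of a type and less RNA per cell cannot be told apart. Relatives within the mu, Ugt2b and Sult2a groups are known for similar sequences, which were not compared here. How far a probe set reads a relative was not tested.

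Of the 3 classes, GST and SULT had medians below that of all genes in Burn-CLP liver. The GST median log2 change over Sham-Sham was -0.56 over the 18 tested genes, with 13 below 0, against a median of 0.00 over the 9339 tested genes, of which 49.6% were below 0. The SULT genes had a median of -0.41, with 9 of 12 below 0, and the UGT genes a median of 0.20, with 2 of 6 below 0. Between arrays of a group the class median itself varied with an SD of 0.217 for GST, 0.170 for SULT and 0.176 for UGT on the log2 scale. That SD is of single arrays and not of a difference between groups, so it does not test a class median. Relative to the Sham-Sham mean, the SULT median was -0.069, -0.640 and -0.205 on Burn-CLP 1, 2 and 3. It was -0.155 to 0.125 on the Sham-Sham arrays, so Burn-CLP 1 lay within them. No test over a class was made, since its members share the same arrays. The order of GST and SULT was not settled: their gap was smaller than these SDs, and SULT was the lower with the filter of all 9 arrays above the floor (-0.622, against -0.519 for GST) and without Sham-Sham 3 (-0.725, against -0.581 for GST).

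**Figure D1:**
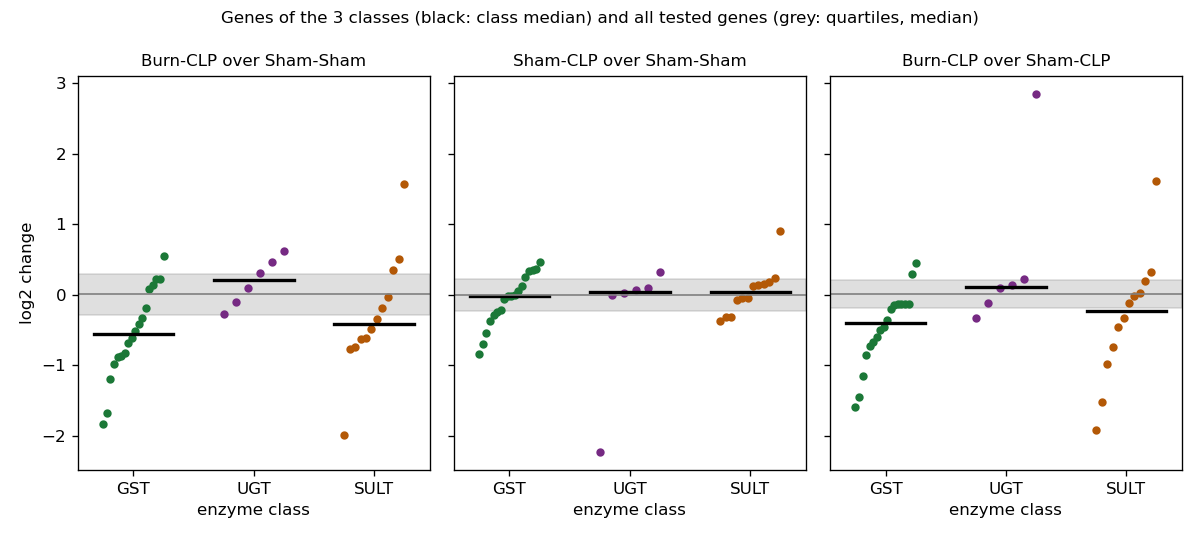
Log2 change of each tested gene of the 3 enzyme classes (points) in the 3 comparisons, with the class median as a black bar and the quartiles and median of all tested genes as a grey band and line. In Burn-CLP over Sham-Sham the GST median is -0.56 and the SULT median -0.41, while the UGT median is 0.20 and that of all genes 0.00.

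The lower GST signals were spread unevenly over the Burn-CLP arrays. Relative to the Sham-Sham mean, the median GST log2 signal was -0.581 on Burn-CLP 1, -0.954 on Burn-CLP 2 and -0.281 on Burn-CLP 3, against -0.098 to 0.079 on the Sham-CLP arrays and -0.033 to 0.017 on the Sham-Sham arrays. Burn-CLP 2 was the lowest of all 9 arrays for 13 of the 18 GST genes, 4 of the 12 SULT genes and 3 of the 7 UGT probe sets. Without Burn-CLP 2 the GST median was -0.439 over Sham-Sham. The same array had the lowest hepatocyte marker sum, 125125, a sum that the normalization partly fixes, and the highest neutrophil marker sum. The sums of the 5 neutrophil markers on the array, of 7 listed, were 678, 1573 and 1199 on Burn-CLP 1, 2 and 3, 582 to 742 in Sham-CLP and 499.7 to 721 in Sham-Sham liver. None of the 5 (0 genes) lay at the floor on all 9 arrays, though Itgam exceeded it on Burn-CLP 2 alone, at 78.9. The high sum of Burn-CLP 2 rested mainly on S100a9 and S100a8, at 788 and 274 there. Cxcr2 and Ncf1 were instead highest on Sham-Sham 1, at 154.5 and 343. Of the other lists, macrophage, endothelial and bile duct markers had their highest sums on Burn-CLP 3, at 15077, 2607.5 and 1834. Blood markers had their lowest sum on Burn-CLP 2, at 9208. Lymphocyte and stellate cell markers had their highest sums on Sham-Sham arrays. What part these cell types had in the GST values was not tested.

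**Figure D2:**
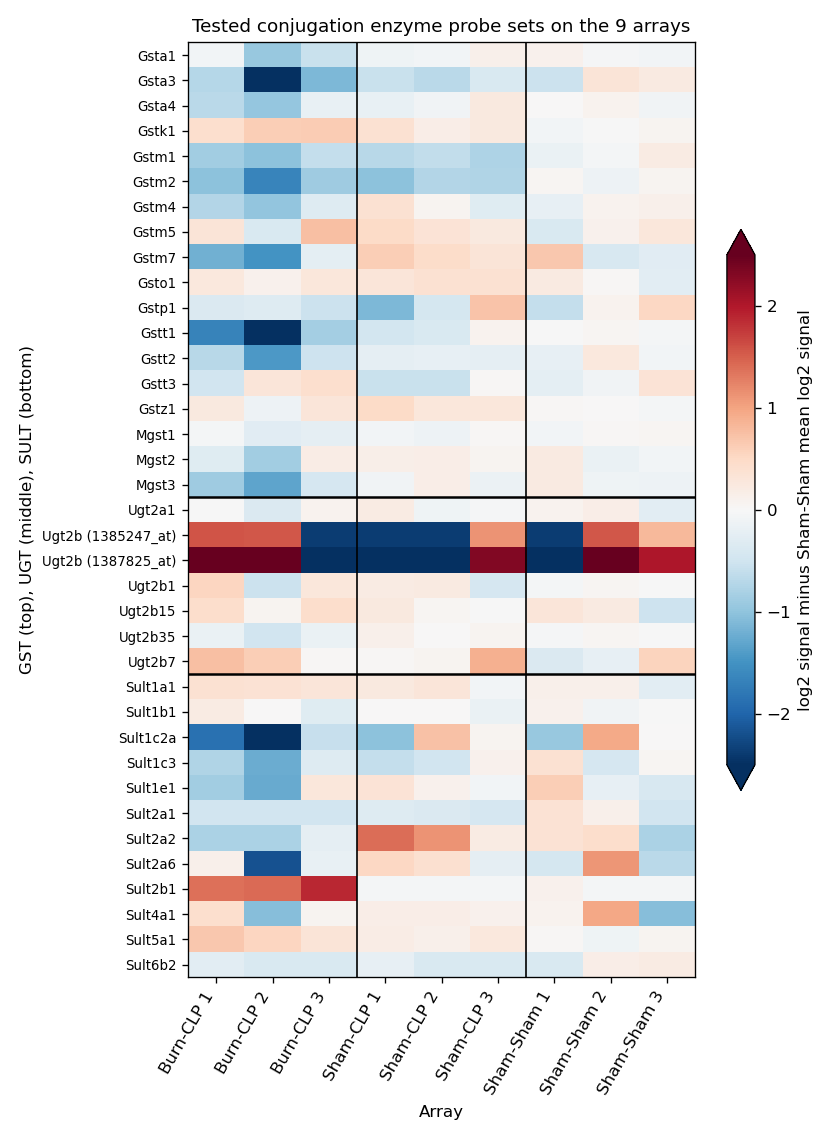
Log2 signal of the 37 tested member probe sets (rows, GST above, UGT in the middle, SULT below) on the 9 arrays (columns, Burn-CLP left, Sham-Sham right), each minus its Sham-Sham mean, with colours clipped at the ends of the scale. Burn-CLP 2 is the lowest array for 13 of the 18 GST rows, and the Ugt2b rows are high or low array by array in all 3 groups.

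In the test of single members, 2 of 37 passed in Burn-CLP over Sham-Sham, Gstm2 lower and Sult2b1 higher, where 0.746% of all tested probe sets passed (0.421% lower and 0.325% higher). Here and below, passing means a Benjamini-Hochberg adjusted p under 0.05 over all 13535 probe sets in limma. At an unadjusted p under 0.05 there were 13 members lower and 3 higher, against 9.85% and 10% of all tested probe sets (19.9% in all). By class these were 10 GST genes lower and 1 higher, 3 SULT genes lower and 2 higher, and 0 UGT genes. The Burn-CLP and Sham-Sham arrays did not overlap for 9 members that were lower and 4 that were higher, against 10.5% and 11% of all probe sets (21.5% in all). For GST alone these were 8 lower and 1 higher of 18.

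The mu subclass, soluble enzymes that act on epoxides and other electrophiles, held the GST member that passed. Gstm2 had signals of 3544, 2284 and 3868 in Burn-CLP liver, 3555, 4335 and 4269.5 in Sham-CLP liver, and 7480.2, 6613 and 7525 in Sham-Sham liver. All 6 arrays with CLP lay below all 3 Sham-Sham arrays, and the Burn-CLP and Sham-CLP arrays overlapped. Gstm2 fell 2.28-fold in Burn-CLP relative to Sham-Sham liver (-1.19 ± 0.22 on the log2 scale with its standard error, 3 arrays a group, adjusted p = 0.0469, limma). In Sham-CLP over Sham-Sham it differed by -0.83 ± 0.22 without passing (adjusted p = 0.292, limma), and Burn-CLP over Sham-CLP by -0.36 ± 0.22 (adjusted p = 0.682). The call lay close to the threshold: it was lost without Burn-CLP 1 (adjusted p = 0.0992), Burn-CLP 2 (0.126), Sham-CLP 1 (0.0819), Sham-CLP 2 (0.0923), Sham-CLP 3 (0.0645), Sham-Sham 1 (0.11) or Sham-Sham 2 (0.1), and with the deposited scaling (0.061). The log2 change lay between -1.34 and -0.952 with each array left out.

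Gstm1, the mu enzyme described as the main one of rat liver, showed the same order of groups. It had 7206, 6460.5 and 8687 in Burn-CLP liver, 8075, 8504 and 7722 in Sham-CLP liver, and 11699, 12719.9 and 15082 in Sham-Sham liver. Again every array with CLP lay below every Sham-Sham array. It differed by -0.82 ± 0.18 in Burn-CLP (adjusted p = 0.0672) and by -0.69 ± 0.18 in Sham-CLP (adjusted p = 0.284) over Sham-Sham, and passed in neither, though with array weights the Burn-CLP difference passed (adjusted p = 0.0437, limma). Burn-CLP over Sham-CLP was -0.13 ± 0.18 (adjusted p = 0.891).

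The other mu genes did not share that order of groups. Gstm7 had 595, 485 and 1158 in Burn-CLP, 2089.5, 1888 and 1716 in Sham-CLP, and 2188, 1046 and 1131 in Sham-Sham liver. The Burn-CLP arrays lay below all Sham-CLP arrays, at -1.45 ± 0.36 (adjusted p = 0.337), but overlapped the Sham-Sham arrays, at -0.98 ± 0.36 (adjusted p = 0.186). Gstm4 had 468, 391 and 623 in Burn-CLP, 1014, 810.2 and 627 in Sham-CLP, and 669, 819.8 and 850.5 in Sham-Sham liver, so its 3 Burn-CLP arrays were the 3 lowest (-0.68 ± 0.24 over Sham-Sham, adjusted p = 0.176). Gstm5, the mu gene with the antioxidant core in 2 places, had 208, 128 and 281 in Burn-CLP, 232, 213 and 199 in Sham-CLP, and 128, 179 and 203 in Sham-Sham liver. Its groups overlapped, and the difference of Burn-CLP over Sham-Sham was 0.23 ± 0.29.

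The theta subclass, which acts on small halogenated compounds and sulfate esters, had the largest difference of a GST gene in Burn-CLP liver. Gstt1 had 161, the floor of 64.3 and 281 in Burn-CLP, 371, 393 and 546 in Sham-CLP, and 508, 531 and 493 in Sham-Sham liver. The Burn-CLP arrays were below all others and spread widely. With 1 of 3 arrays at the floor, the differences were -1.84 ± 0.44 over Sham-Sham (adjusted p = 0.0791) and -1.59 ± 0.44 over Sham-CLP (adjusted p = 0.363). The size rested on single arrays. Without Burn-CLP 2, the array at the floor, the difference over Sham-Sham was -1.26 (adjusted p = 0.164), and without Burn-CLP 3 it was -2.34 and passed (adjusted p = 0.0276, limma). Gstt2 had 1088, 649 and 1233 in Burn-CLP, 1494, 1525 and 1512 in Sham-CLP, and 1534, 2109 and 1677 in Sham-Sham liver. Its 3 groups followed each other without overlap, at -0.88 ± 0.25 for Burn-CLP and -0.22 ± 0.25 for Sham-CLP over Sham-Sham. Gstt3, of the same subclass, had overlapping groups, with 3562 to 6705 in Burn-CLP, 3366 to 5079.9 in Sham-CLP and 4179 to 6331 in Sham-Sham liver (0.09 ± 0.29).

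Alpha enzymes reduce lipid hydroperoxides, and Gsta4 is the one specialised for 4-hydroxynonenal, an aldehyde made by lipid oxidation. Gsta4 had 2514, 2063 and 3555 in Burn-CLP, 3558, 3789.9 and 4739 in Sham-CLP, and 4066, 4254 and 3762 in Sham-Sham liver. The highest Burn-CLP array lay just under the lowest Sham-CLP array, and the difference over Sham-Sham was -0.61 ± 0.22 (adjusted p = 0.186). Gsta3 had 420.2, 75.2 and 319 in Burn-CLP, 469, 436 and 532 in Sham-CLP, and 475, 864 and 810.5 in Sham-Sham liver (-1.68 ± 0.55, adjusted p = 0.153). Its Burn-CLP arrays did not overlap those of either other group, and Burn-CLP 2 was far below the other 2. Without that array the difference over Sham-Sham was -0.92 (adjusted p = 0.271). Gsta1 had 11155, 6039.8 and 7915 in Burn-CLP, 10759, 11155 and 12614 in Sham-CLP, and 12452, 11333 and 11113 in Sham-Sham liver, with overlap and a difference of -0.52 ± 0.22 over Sham-Sham (adjusted p = 0.242).

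Of the membrane-bound enzymes, Mgst3 was the one whose Burn-CLP arrays lay apart. It had 1312, 965 and 1815 in Burn-CLP, 2276, 2690.4 and 2188 in Sham-CLP, and 2834, 2248 and 2206 in Sham-Sham liver. Burn-CLP lay below both other groups, at -0.87 ± 0.24 over Sham-Sham (adjusted p = 0.11) and -0.85 ± 0.24 over Sham-CLP (adjusted p = 0.363). Mgst1, the abundant microsomal transferase of liver, had 20918, 17662 and 18293 in Burn-CLP, 20496, 19645 and 21871 in Sham-CLP, and 20496, 21871 and 22213 in Sham-Sham liver (-0.19 ± 0.15). Mgst2, which can make leukotriene C4, differed by -0.33 ± 0.25, with 1755 to 3643 in Burn-CLP, 3335 to 3604 in Sham-CLP and 2856 to 3717 in Sham-Sham liver. For both, the 3 groups overlapped.

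Of the remaining soluble subclasses, kappa, omega and zeta were higher on average in Burn-CLP than in Sham-Sham liver, and none passed. Gstk1, the kappa enzyme of mitochondria and peroxisomes, had 2891, 3292 and 3362 in Burn-CLP, 2804, 2419 and 2539 in Sham-CLP, and 2072, 2153 and 2253 in Sham-Sham liver. None of its groups overlapped, Burn-CLP being highest and Sham-Sham lowest, with differences of 0.56 ± 0.15 in Burn-CLP (adjusted p = 0.112) and 0.26 ± 0.15 in Sham-CLP over Sham-Sham. The first passed where every probe set was tested without a filter (adjusted p = 0.0454, limma). Gsto1, an omega enzyme that reduces dehydroascorbate, had 3661, 3289.5 and 3702 in Burn-CLP, 3780.1, 3947 and 3980.2 in Sham-CLP, and 3572, 3112 and 2541 in Sham-Sham liver. Gstz1, the zeta enzyme that isomerises maleylacetoacetate in tyrosine breakdown, had 6165, 4792 and 6385 in Burn-CLP, 7254, 6299 and 6318 in Sham-CLP, and 5354, 5247 and 5037 in Sham-Sham liver. For Gsto1 and Gstz1 the Sham-CLP arrays lay above all Sham-Sham arrays, at 0.36 ± 0.17 and 0.34 ± 0.17, with adjusted p of 0.455 and 0.462. Gstp1, the pi enzyme known from bile duct cells and altered hepatocytes, had overlapping groups, with 213 to 248 in Burn-CLP, 143 to 508 in Sham-CLP and 205 to 443 in Sham-Sham liver (-0.41 ± 0.43). Bile duct markers, 5 of 7 listed on the array, summed to 1275 to 1834 in Burn-CLP, 1236 to 1350 in Sham-CLP and 1251 to 1425 in Sham-Sham liver.

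**Figure D3:**
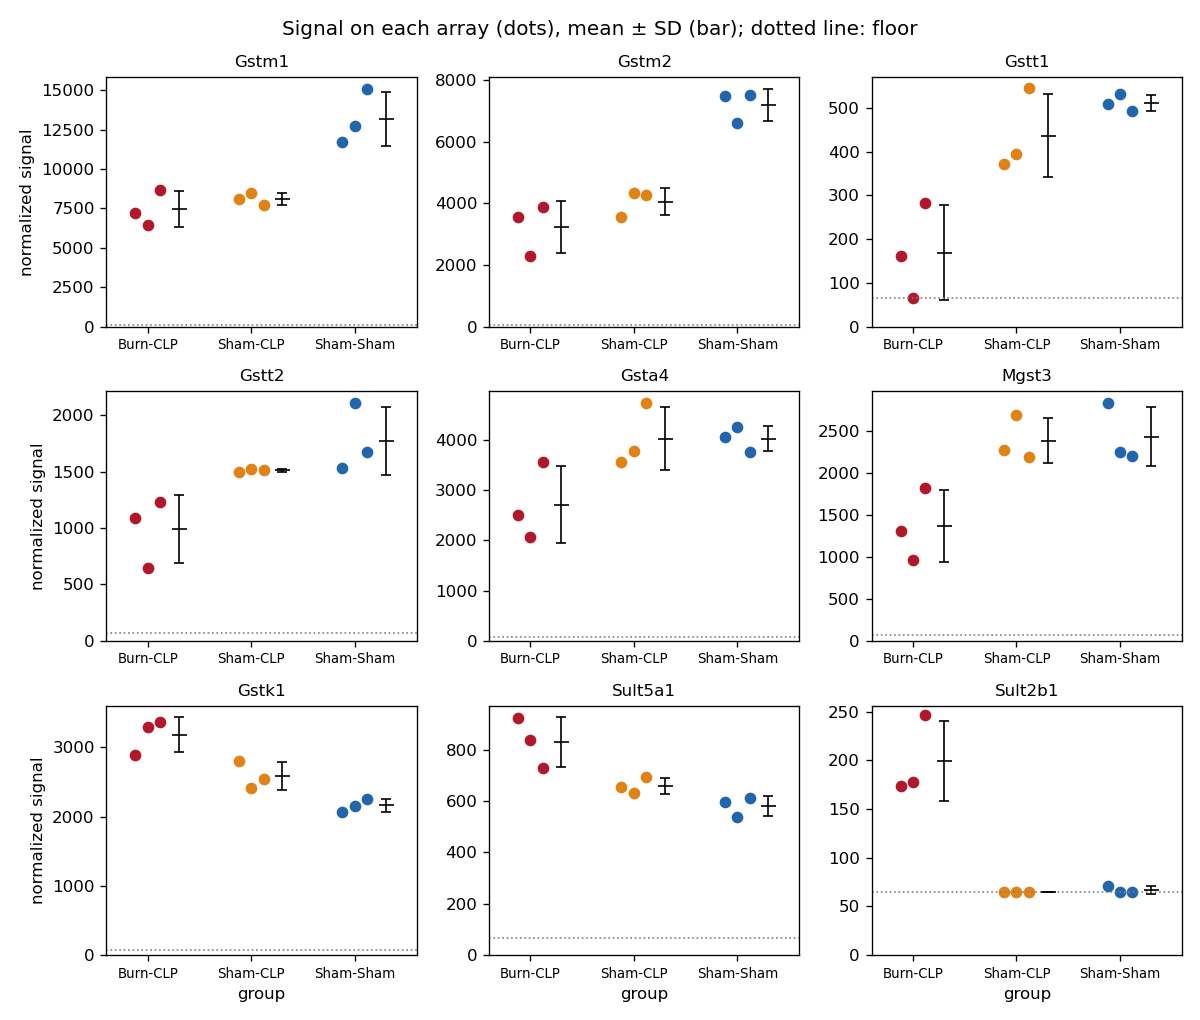
Normalized signal of 9 members on each array (dots) with the mean and SD of each group beside them, Burn-CLP left, Sham-CLP in the middle and Sham-Sham right, on linear axes from 0 with the floor as a dotted line. Gstm1 and Gstm2 are lower on all 6 arrays with CLP, Gstt1, Gsta4 and Mgst3 are lowest on the 3 Burn-CLP arrays, while Gstk1 and Sult5a1 run upward to Burn-CLP and Sult2b1 is above the floor in Burn-CLP.

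Among the UGT genes 0 of 7 probe sets passed in any comparison, and 0 had an unadjusted p under 0.05. Ugt2b, which encodes a UGT whose RefSeq synonym is Ugt2b2, was present or absent array by array. Its brighter probe set had 10779.6, 10469 and 125 in Burn-CLP, the floor of 64.3, 75.2 and 7832 in Sham-CLP, and the floor, 9495 and 6420.3 in Sham-Sham liver. Its other probe set had 986, 971 and the floor in Burn-CLP, the floor, the floor and 723 in Sham-CLP, and the floor, 976 and 583 in Sham-Sham liver. The same 5 arrays were high in both, Burn-CLP 1 and 2, Sham-CLP 3, and Sham-Sham 2 and 3, so every group held high and low arrays. The differences between groups accordingly had standard errors of 2.51 and 1.38 on the log2 scale, and Burn-CLP over Sham-Sham was 0.62 and 0.25. As background, the enzyme of this name conjugates androsterone in the rat, and some Wistar rats are known to lack that activity by inheritance. The labels give neither strain nor genotype, and its part in these values was not tested.

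Ugt2b7 followed this division in part, at far lower signals. It had 138.8, 126.9 and 84.1 in Burn-CLP, 84.7, 86.0 and 152.7 in Sham-CLP, and the floor, 71.7 and 121.8 in Sham-Sham liver (0.47 ± 0.33). In each group every array with high Ugt2b exceeded every array with low Ugt2b, although Sham-Sham 2, a high array, lay below the low arrays of the other groups. Whether its probe set reads Ugt2b was not tested. Ugt2b1, Ugt2b15 and Ugt2b35 did not follow the division. Ugt2b1 had 11634, 5493 and 9786 in Burn-CLP, 9246, 9298 and 6002 in Sham-CLP, and 7722, 8310.4 and 7979 in Sham-Sham liver (0.10 ± 0.29 for Burn-CLP over Sham-Sham). Ugt2b15 had 4534, 3515 and 4568 in Burn-CLP, 3962, 3458 and 3358 in Sham-CLP, and 4141, 3924 and 2338 in Sham-Sham liver (0.31 ± 0.24). The groups overlapped for both. Ugt2b35 had 9786, 7855 and 9740.3 in Burn-CLP, 11979, 10961 and 11438 in Sham-CLP, and 10676, 11297 and 10779.6 in Sham-Sham liver. It was the UGT gene whose Burn-CLP arrays all lay below both other groups, at -0.27 ± 0.16 over Sham-Sham (adjusted p = 0.374) and -0.33 ± 0.16 over Sham-CLP (adjusted p = 0.573). Ugt2a1, known from olfactory epithelium, had 349 to 477 in Burn-CLP, 419 to 518 in Sham-CLP and 377 to 506 in Sham-Sham liver (-0.10 ± 0.20). The groups overlapped for Ugt2a1 and Ugt2b7. The UGT median of 0.20 was -0.134 without Burn-CLP 1 and 0.008 without Sham-Sham 1, so its sign rested on single arrays.

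**Figure D4:**
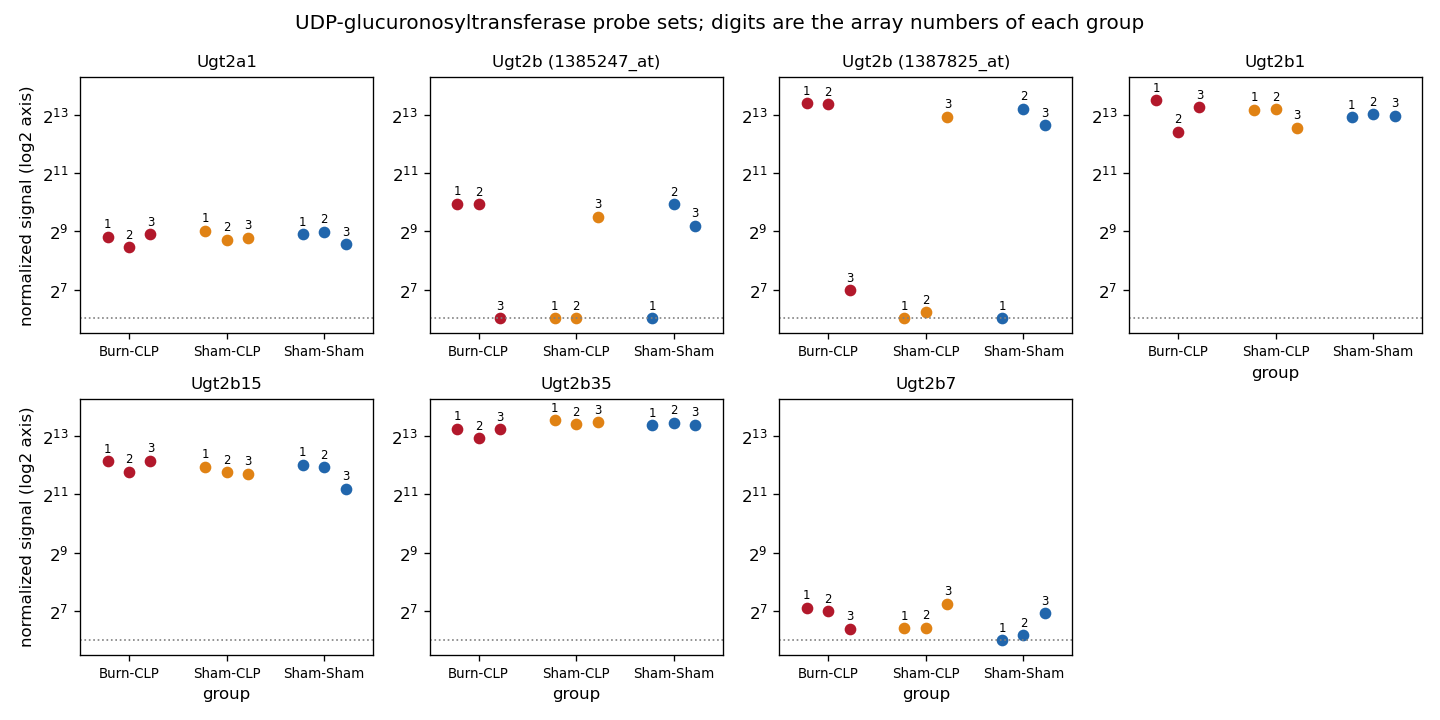
Signal of the 7 UGT probe sets on each array, on a log2 axis with the floor as a dotted line and digits giving the array number within Burn-CLP (left), Sham-CLP (middle) and Sham-Sham (right). Both Ugt2b probe sets are high on the same 5 arrays, which lie in all 3 groups, while Ugt2b1, Ugt2b15 and Ugt2b35 show no such division.

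Of the SULT genes, Sult2b1, which encodes an enzyme that sulfates cholesterol and pregnenolone and is known mainly from skin and other epithelia, was the member with the smallest p. One of its probe sets had 174, 178 and 247 in Burn-CLP liver, while all 3 Sham-CLP arrays lay at the floor of 64.3 and Sham-Sham liver had 71.3 and 2 arrays at the floor. All Burn-CLP arrays were above all others. Sult2b1 rose 2.96-fold in Burn-CLP relative to Sham-Sham liver, where 2 of the 3 Sham-Sham arrays lay at the floor (1.57 ± 0.18, adjusted p = 0.00787, limma), and at least 3.06-fold relative to Sham-CLP liver (1.62 ± 0.18, adjusted p = 0.0361, limma). The floor also cut the spread: the SD of the signals was 41.1 in Burn-CLP, 0 in Sham-CLP and 4 in Sham-Sham liver. The standard errors and p-values thus leave out the spread of arrays under the floor. This probe set passed the filter through the 3 Burn-CLP arrays and Sham-Sham 1. Before normalization and floor, the deposited intensities were 182, 179.9 and 249 in Burn-CLP, 36.4, 34.7 and 38.9 in Sham-CLP, and 82.6, 62.3 and 48.0 in Sham-Sham liver. The second Sult2b1 probe set lay at the floor on all 9 arrays, with deposited intensities of at most 21.5. The rise over Sham-Sham kept its call with each array left out. The rise over Sham-CLP lost it without Burn-CLP 1 (adjusted p = 0.0901), Burn-CLP 2 (0.15), Sham-CLP 1 (0.219), Sham-CLP 2 (0.223), Sham-CLP 3 (0.123), Sham-Sham 1 (0.0567) or Sham-Sham 2 (0.0996).

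Sult5a1, for which no role is given here, was the SULT gene whose 3 groups lay apart. It had 924, 839.8 and 728 in Burn-CLP, 657, 631 and 692 in Sham-CLP, and 594, 538 and 611 in Sham-Sham liver. None of the groups overlapped, and Burn-CLP over Sham-Sham was 0.51 ± 0.16 (adjusted p = 0.146). Sult1a1, the main phenol sulfotransferase of liver, had 20496, 20316 and 19460.1 in Burn-CLP, 18686, 19460.1 and 14961 in Sham-CLP, and 17245, 17245 and 13144 in Sham-Sham liver (0.35 ± 0.18, adjusted p = 0.309). Burn-CLP lay above Sham-Sham without overlap, but with the deposited scaling Burn-CLP over Sham-CLP turned to -0.032, against 0.19 with the normalization. Sult1b1, which sulfates thyroid hormones and phenols, had 12452, 10852 and 8816 in Burn-CLP, 10852, 10922 and 9614 in Sham-CLP, and 11634, 10170 and 10676 in Sham-Sham liver. Its groups overlapped, with a difference of -0.03 ± 0.18 over Sham-Sham.

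Most of the remaining SULT genes were lower on average in Burn-CLP liver, with wide spreads. Sult1c2a had 247, 77.5 and 609.8 in Burn-CLP, 445, 1508 and 945 in Sham-CLP, and 466, 1735 and 912 in Sham-Sham liver (-1.99 ± 0.75, adjusted p = 0.197). Sult1c3 had 4038, 2907 and 5444 in Burn-CLP, 4509.8, 4927 and 7382 in Sham-CLP, and 8847, 5117 and 7068 in Sham-Sham liver (-0.77 ± 0.30, adjusted p = 0.206). In both, 1 Burn-CLP array reached into the other groups. Without Burn-CLP 2 the Sult1c2a difference was -1.22, and without Burn-CLP 3 it was -2.72. Sult1e1, the estrogen sulfotransferase, had 7614, 5784 and 16888 in Burn-CLP, 17662, 14961 and 13248 in Sham-CLP, and 21364, 12068 and 10505 in Sham-Sham liver (-0.62 ± 0.40). The groups overlapped through Burn-CLP 3, and the difference had an adjusted p of 0.402.

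The Sult2a enzymes sulfate hydroxysteroids and bile acids, and 3 of their genes share the C/EBP letters described above. Sult2a2 had the floor, the floor and 95.1 in Burn-CLP, 293, 244 and 129.5 in Sham-CLP, and 143, 151 and the floor in Sham-Sham liver. Burn-CLP lay below all Sham-CLP arrays, at -1.52 ± 0.39 (adjusted p = 0.355), and Sham-CLP over Sham-Sham was 0.91 ± 0.39 (adjusted p = 0.415). Sult2a1 lay at the floor on all 3 Burn-CLP arrays, with 71.9, 69.9 and 67.3 in Sham-CLP and 116, 97.7 and the floor in Sham-Sham liver, so it was near the floor throughout. The size of its difference over Sham-Sham was therefore set by the floor. It was -0.48 ± 0.22 here (adjusted p = 0.252), -1.116 with the floor at the 10th percentile (adjusted p = 0.211) and -0.872 with log2 of the signal plus 16 (adjusted p = 0.197). Without Sham-Sham 3, itself at the floor, it was -0.727 and passed (adjusted p = 0.0478, limma). Sult2a6 had 3467, 696 and 2796 in Burn-CLP, 4556, 4179 and 2703 in Sham-CLP, and 2326, 6831 and 1995 in Sham-Sham liver (-0.74 ± 0.63), with overlap between all groups. Without Burn-CLP 2 the difference was -0.02.

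The last SULT genes were dim. Sult4a1, known from brain, had the floor to 181 in Burn-CLP, 145 to 152 in Sham-CLP and the floor to 265 in Sham-Sham liver (-0.19 ± 0.50). Sult6b2 had 69.2 and 2 arrays at the floor in Burn-CLP, 72.8 and 2 arrays at the floor in Sham-CLP, and the floor, 94.2 and 96.0 in Sham-Sham liver (-0.34 ± 0.19). Neither separated the groups. The SULT median over Sham-Sham was -0.174 without Burn-CLP 2, -0.220 without Sham-Sham 2 and -0.725 without Sham-Sham 3, against -0.41 with all arrays.

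Sham-CLP over Sham-Sham, the comparison of CLP alone, had 0 of 37 members passing, where 0.0591% of all probe sets passed (0.0443% higher and 0.0148% lower). Before adjustment, 3 members had a p under 0.05, Gstm1 and Gstm2 lower and Sult2a2 higher, against 11.7% of all tested probe sets (5.83% higher and 5.9% lower). The arrays did not overlap for 3 members that were lower (Gstm1, Gstm2 and Gstt2) and 4 that were higher (Gstk1, Gsto1, Gstz1 and Sult5a1), against 8.65% and 8.1% of all probe sets (16.7% in all). The class medians lay near that of all genes, at -0.02 for GST, 0.04 for UGT and 0.04 for SULT, against 0.00. With the deposited scaling, where the median of all genes was -0.075, the GST median was 0.099, so the sign of the GST median depended on the scaling.

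Burn-CLP over Sham-CLP, the comparison of burn on top of CLP, had 1 of 37 members passing, Sult2b1, where 0.0148% of all probe sets passed. The GST median was -0.41, with 16 of 18 genes below 0, against 0.02 and 48.1% over all tested genes. It was -0.179 without Burn-CLP 2 and -0.510 with the deposited scaling, where the median of all genes was 0.101. At an unadjusted p under 0.05 there were 6 GST genes lower, Gsta4, Gstm4, Gstm7, Gstt1, Gstt2 and Mgst3, and 0 higher, where 5.19% and 3.9% of all probe sets were (9.09% in all). The SULT median was -0.22 with 8 of 12 below 0. The UGT median of 0.12 was -0.067 without Burn-CLP 1, and with the deposited scaling it was 0.028, below the median of all genes. In all members, the arrays did not overlap for 11 that were lower and 3 that were higher, against 9.22% and 9.61% of all probe sets (18.8% in all). The 3 Burn-CLP arrays were the lowest of the 9 for Gsta3, Gsta4, Gstm4, Gstt1, Gstt2, Mgst3 and Ugt2b35, while for Gstm1 and Gstm2 they overlapped the Sham-CLP arrays. The 3 comparisons share arrays, so their values are not independent of each other.

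**Figure D5:**
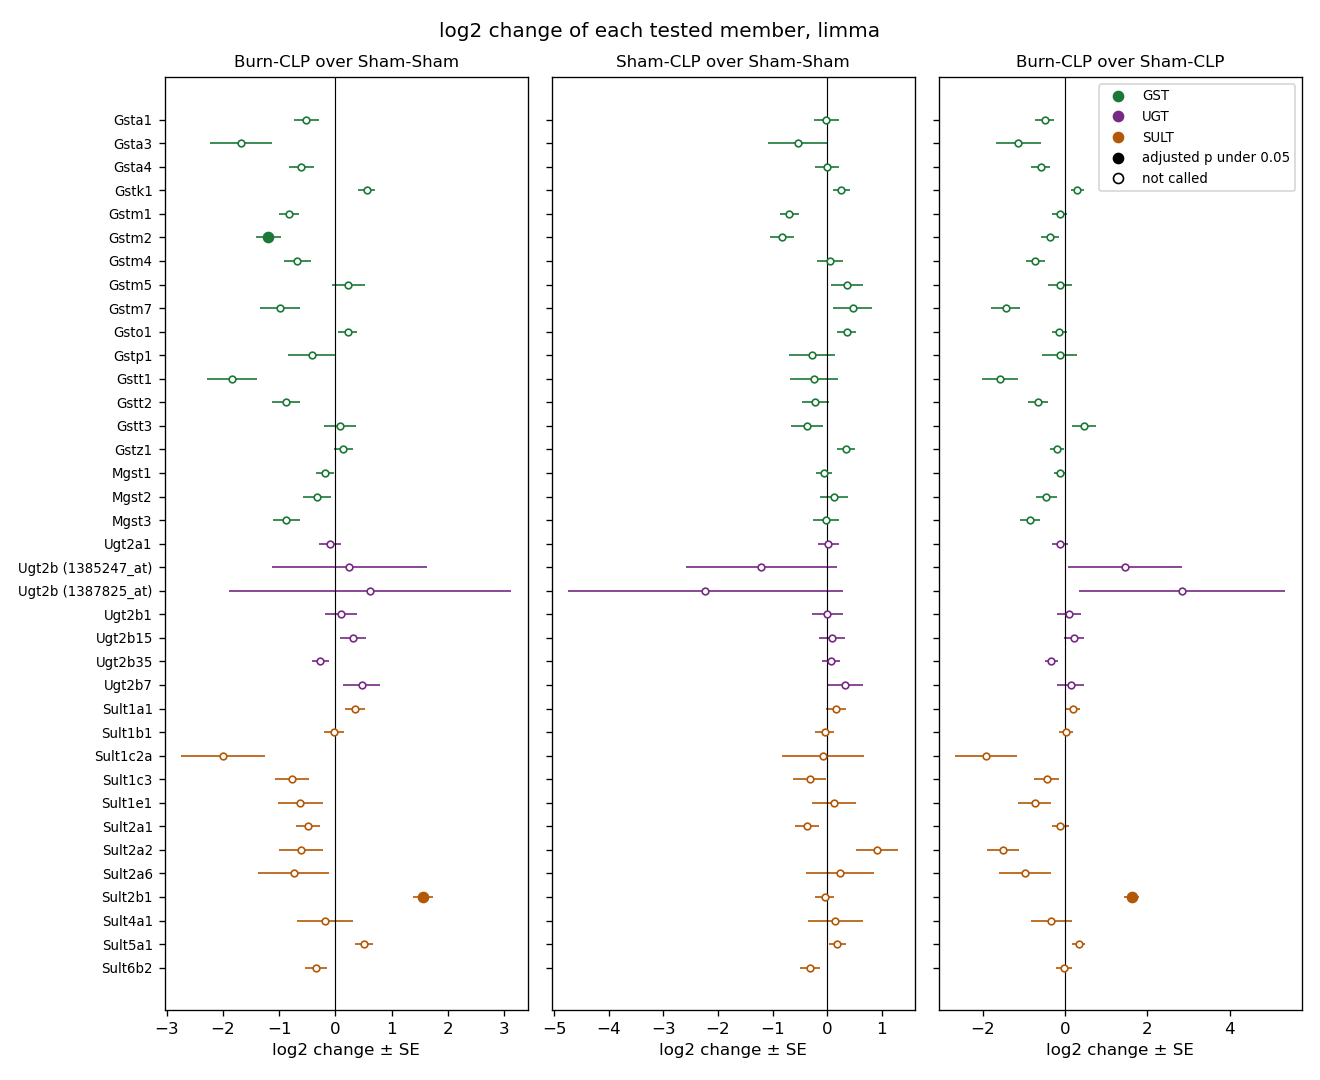
Log2 change with its SE for each tested member (rows) in Burn-CLP over Sham-Sham (left), Sham-CLP over Sham-Sham (middle) and Burn-CLP over Sham-CLP (right), coloured by class, with filled points for an adjusted p under 0.05. Filled points are Gstm2 and Sult2b1 on the left and Sult2b1 on the right, and the Ugt2b probe sets have the widest bars.

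Around the conjugating enzymes, 75 genes of cofactor supply and removal, transport, control and the antioxidant response were listed by function. Of the 75, 63 were tested. Of these, 0 rose and 2 fell in Burn-CLP over Sham-Sham, where 0.325% of all probe sets were called higher and 0.421% lower. In Sham-CLP over Sham-Sham and in Burn-CLP over Sham-CLP 0 passed, where 0.0591% and 0.0148% of all probe sets did. At an unadjusted p under 0.05, Burn-CLP over Sham-Sham had 5 of the 63 higher and 16 lower, against 10% and 9.85% of all probe sets. Sham-CLP over Sham-Sham had 2 higher and 6 lower, against 5.83% and 5.9%. Burn-CLP over Sham-CLP had 1 higher and 7 lower, against 3.9% and 5.19%. The median of the 63 was -0.03 in Burn-CLP over Sham-Sham, against 0.00 over all tested genes.

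In the supply of the sulfate donor, Slc13a4, a sodium-coupled sulfate transporter, had 120, 139 and 279 in Burn-CLP, 488, 507 and 646 in Sham-CLP, and 599, 649 and 861 in Sham-Sham liver. It fell 4.16-fold in Burn-CLP relative to Sham-Sham liver (-2.06 ± 0.31, adjusted p = 0.0286, limma), and differed by -1.70 ± 0.31 from Sham-CLP (adjusted p = 0.178). Burn-CLP lay below both other groups on all arrays. Bpnt1, which clears the used sulfate donor, had 1006, 783 and 855 in Burn-CLP, 1017, 1030 and 802 in Sham-CLP, and 568, 713 and 617 in Sham-Sham liver (0.48 ± 0.18 and 0.58 ± 0.18 over Sham-Sham, neither passing). This list covered removal as well as supply, and held the sulfatases Sts, Arsa and Arsb. Its 11 tested genes had a median of 0.06 in Burn-CLP over Sham-Sham, with 1 passing.

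In the supply of UDP-glucuronic acid, Ugdh, which oxidises UDP-glucose to it, had 3056, 1216 and 2588 in Burn-CLP, 2523, 2303 and 3052 in Sham-CLP, and 3812, 4032 and 5107 in Sham-Sham liver. Ugp2, which makes UDP-glucose, had 4866, 4197 and 3744 in Burn-CLP, 3880, 4539 and 5097 in Sham-CLP, and 5574, 7676 and 7382 in Sham-Sham liver. For both, all arrays with CLP lay below all Sham-Sham arrays, as for Gstm1 and Gstm2. The differences of Burn-CLP over Sham-Sham were -1.01 ± 0.32 and -0.68 ± 0.20, with adjusted p of 0.147 and 0.125. The list also held Slc35b1 (brighter probe set), Gusb, which splits glucuronides, and Miox, at 0.12, 0.06 and -0.02. The median of -0.02 over its 5 tested genes is therefore not that of the supply enzymes alone.

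In the supply of glutathione, Oplah, which recycles 5-oxoproline to glutamate, had 655, 528 and 815 in Burn-CLP, 1298, 1246 and 897 in Sham-CLP, and 1361, 1326 and 1634 in Sham-Sham liver. The 3 groups did not overlap, and Burn-CLP over Sham-Sham was -1.13 ± 0.22 (adjusted p = 0.0552). Cth, which makes cysteine from cystathionine, had 4236, 2727 and 5921 in Burn-CLP, 7126, 6639 and 8016 in Sham-CLP, and 6692, 7254 and 7187 in Sham-Sham liver (-0.78 ± 0.26, adjusted p = 0.157). Burn-CLP was below both other groups. The 10 tested genes of the list had a median of -0.09, with 0 passing.

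Of the conjugate exporters, Abcc3, which exports glucuronides across the sinusoidal membrane, had 1207, 744 and 469 in Burn-CLP, 571, 695 and 214 in Sham-CLP, and the floor, 298 and 394 in Sham-Sham liver. Burn-CLP was above Sham-Sham on all arrays, at 1.93 ± 0.69 (adjusted p = 0.179). Abcb1a, a drug efflux pump, had 172, the floor and the floor in Burn-CLP, 93.3, 69.0 and 72.0 in Sham-CLP, and 154, 169 and 242 in Sham-Sham liver at 1 probe set (-1.05 ± 0.37). Its other probe set differed by -0.76 ± 0.61, and neither passed. The list also held carriers known for uptake, Slco1a1, Slco1b2 (brighter probe set) and Slc22a7, at 0.06, -0.46 and -0.45 in Burn-CLP over Sham-Sham. The 9 tested genes of this mixed list had a median of -0.37 in that comparison, with 0 passing.

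Among regulators, Nr1h4, the bile acid receptor FXR, had 531, 559.9 and 823 in Burn-CLP, 1408, 1223 and 1269.7 in Sham-CLP, and 1201, 1106 and 1167 in Sham-Sham liver. Cebpa, a hepatocyte transcription factor of the C/EBP family, had 602, 529 and 609 in Burn-CLP, 892, 1157 and 1089 in Sham-CLP, and 699.5, 913 and 1004 in Sham-Sham liver. For both, Burn-CLP was below both other groups on all arrays. The differences over Sham-Sham were -0.89 ± 0.20 for Nr1h4 (adjusted p = 0.0687) and -0.58 ± 0.19 for Cebpa (adjusted p = 0.161), and over Sham-CLP -1.05 ± 0.20 (adjusted p = 0.179) and -0.85 ± 0.19 (adjusted p = 0.293). The 16 tested regulators had a median of 0.17 in Burn-CLP over Sham-Sham, with 10 above 0 and 0 passing.

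Of 12 other enzymes linked to the antioxidant response, Akr7a3, which reduces aflatoxin dialdehyde, had 780.2, 289 and 558 in Burn-CLP, 656, 584 and 628 in Sham-CLP, and 1585, 1769 and 2899.8 in Sham-Sham liver. It fell 4.01-fold in Burn-CLP relative to Sham-Sham liver (SE 0.35 on the log2 scale, adjusted p = 0.0419, limma), and differed by -1.69 ± 0.35 in Sham-CLP over Sham-Sham (adjusted p = 0.217). As for Gstm1 and Gstm2, every array with CLP was below every Sham-Sham array, and Burn-CLP overlapped Sham-CLP. Ephx1, the microsomal epoxide hydrolase, had 6705, 2367 and 5342 in Burn-CLP, 6442, 7047 and 8242 in Sham-CLP, and 8378, 10244 and 11800.1 in Sham-Sham liver (-1.19 ± 0.35, adjusted p = 0.126). The list had a median of -0.57 in Burn-CLP and -0.35 in Sham-CLP over Sham-Sham, with 9 and 10 of 12 below 0, and Akr7a3 was the member that passed.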

How the data were processed

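The authors deposited 1 intensity per probe set and array on a linear scale, for 15923 probe sets on 9 arrays. For how the scans became these values, the sources used here give nothing. In the values, the mean after trimming 2% at each end lies between 500.14 and 500.17 on every array, while the medians ran from 205 to 268.1, so the arrays were quantile normalized. Values under the 20th percentile, 64.3, were set to it, log2 was taken, and 13535 probe sets with at least 3 of 9 arrays above that floor were tested, without 57 control probe sets. There is no read depth for arrays; precision rests on how many there are. A group of 3 against 3 cannot reach an exact permutation p under 0.1, so the tests were those of limma 3.58.1 in R 4.3.3 (lmFit and eBayes, 1 fit of all 9 arrays), with Benjamini-Hochberg adjustment over all tested probe sets and a threshold of 0.05. Where a group lay at the floor on all its arrays and the other above it on all, the fold is a lower bound, given as at least. With some arrays at the floor, the floor sets part of the size and can understate or overstate it. Sult6b2 in Sham-CLP over Sham-Sham was -0.32 here and 0.017 with the floor at the 10th percentile.

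Symbols came from the platform annotation and were updated to RefSeq (GRCr8), by Entrez identifier for 12748 probe sets and by accession for 2, with 33 kept. In all, 12783 probe sets had 1 symbol, 312 several and 2771 none. No member symbol changed (0 members). For a gene with several probe sets, the brightest entered class medians. Promoters were scanned as printed by RefSeq, for letters on both strands. The members and lists were chosen with earlier results of these data known. Named with every array were members that passed, in each class the 4 smallest p in each comparison and the 3 brightest probe sets, and of each partner list those that passed and the 2 smallest F-test p. Other members are given by their values or their range. The fit and the adjustment alone were tested on simulated log2 values of 13535 probe sets, drawn independently. The normalization, floor and filter were not simulated, so the rates do not cover the effect of the floor. For Burn-CLP over Sham-Sham the simulation recovered 32% of planted changes of size 1 (log2) and 79% of those of size 2, and for Burn-CLP over Sham-CLP 31% and 81%. Alternatives were the deposited scaling, other filters and floors (including log2 of the signal plus 16), array weights, fits of 2 groups alone, a replicate block, and each array left out.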

Additional observations from a re-analysis of the deposited data

Results flagged for a closer look

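Sult2b1 differed between the livers with burn and CLP and those with CLP alone. At the tested probe set all 3 Sham-CLP arrays and 2 of the 3 Sham-Sham arrays lay at the floor, and all 3 Burn-CLP arrays lay above all others. The test of the difference itself, Burn-CLP over Sham-CLP, gave 1.62 ± 0.18 on the log2 scale (adjusted p = 0.0361, limma), which is a lower bound on the size because of the floor. The standard error and p leave out the spread of the arrays set to the floor. The difference was 2.191 with the floor at the 10th percentile (adjusted p = 0.038) and 1.850 with log2 of the signal plus 16 (adjusted p = 0.0468). Sham-CLP over Sham-Sham has no size of its own at this probe set, being -0.05 here and -0.478 with the lower floor. The probe set reached the filter of 3 arrays above the floor through the 3 Burn-CLP arrays, with 1 Sham-Sham array besides, so it had to differ to be tested. The gene's second probe set lay at the floor on all 9 arrays, and whether the 2 probe sets read the same transcripts was not tested.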

How the results depend on the processing

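Of the 2 members called in Burn-CLP over Sham-Sham, 1 remained with the deposited scaling, 1 with the filter of all 9 arrays above the floor (which left Sult2b1 untested), 1 with the floor at the 10th percentile, 1 with log2 of the signal plus 16, 1 with the replicate block, and 0 in a fit of the 2 groups alone, where Sult2b1 had an adjusted p of 0.0553 and Gstm2 one of 0.143. Without single arrays the count ran from 1 to 3. Gstm2 lost its call in 13 alternatives. The 1 member called in Burn-CLP over Sham-CLP became 0 with the deposited scaling (adjusted p = 0.0509), with the filter of all arrays, in the 2 groups alone (0.0786) and with the replicate block (0.167), and the count ran from 0 to 1 without single arrays. In Sham-CLP over Sham-Sham it stayed at 0 in every alternative run. The UGT median of Burn-CLP over Sham-Sham was -0.000 with the filter of all arrays, 0.022 with array weights and -0.134 to 0.242 without single arrays. The SULT median was -0.622 with the filter of all arrays and -0.725 to -0.174 without single arrays. In Burn-CLP over Sham-CLP, the SULT median was -0.453 with the filter of all arrays, -0.510 with the lower floor and -0.455 with log2 of the signal plus 16. Without single arrays the GST median ran from -0.496 to -0.179, the UGT median from -0.067 to 0.2 and the SULT median from -0.291 to -0.06. The GST median of Burn-CLP over Sham-Sham stayed between -0.702 and -0.439 in all alternatives run. For single members, 1808 values kept their side of the threshold, 24 lost a call, 4 gained one and 24 uncalled ones moved beyond the spread. Of the 1808, the uncalled values stayed within the spread. Called values were held only to the threshold and their direction, whatever their shift in size. No called value (0) turned its direction. Apart from where the construction of an alternative shows it, the cause was not tested. Same-numbered arrays correlated between -0.0261 and 0.0806 in their deviations from the group means. Differently numbered arrays were not compared and the labels do not say, so whether the replicate numbers pair the arrays was not settled. Signals near the floor, as for Sult2b1, Sult2a1, Sult2a2 and Sult6b2, limit what can be read from their size.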
